A study of Mus musculus with 12 samples.

Results

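The genes described here encode the proteins of the mitochondrial ribosome (Mrpl and Mrps) and the numbered subunits of the mitochondrial import machinery (Timm and Tomm). Spotted cDNA clones were taken by name: every clone whose annotated gene symbol starts with Mrpl, Mrps, Timm or Tomm followed by a digit. The rule itself uses no values, but it was chosen with earlier results of these data known. It gave 71 clones of 59 genes among the 15600 clones on the array. A further 2 clones matched but were annotated with several genes, so they stayed unnamed and were left out. With the dimmest 25% of clones set aside, 67 of the 71 clones, from 56 genes, were tested among 11700 clones in all. The 4 dim clones were those of Mrpl10, Mrpl52 and Mrpl58 and the dimmer of 2 clones of Mrpl50. They were tested only in an alternative run without this filter.

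Mitochondria keep a genome of their own, which encodes core subunits of the respiratory chain, and a dedicated ribosome in the matrix translates those messages. All proteins of that ribosome are encoded in the nucleus, made in the cytosol and imported. Import passes through the TOM complex of the outer membrane and then the TIM complexes of the inner membrane, and the same gates serve nearly all other mitochondrial proteins. The proximal tubule of the kidney cortex is rich in mitochondria, which power the reabsorption of filtered salts, sugar and amino acids.

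Kidney cortex RNA came from 6 mice, 3 menopausal/diabetic (MD1, MD2 and MD3) and 3 diabetic (D1, D2 and D3). The menopausal/diabetic mice had received VCD and STZ, and the diabetic mice STZ alone. STZ, streptozotocin, kills insulin-making beta cells. VCD, vinylcyclohexene diepoxide, depletes small ovarian follicles, so that cycling stops slowly, much as in menopause. Both groups shared STZ, and their tissue was collected 6 weeks after it. No group without STZ and no group given VCD alone was analysed, so loss of ovarian follicles and other effects of VCD cannot be told apart. Strain, age and dose are not given in the labels. RNA was amplified and hybridised in pairs to 12 arrays, 6 pairing the groups, 3 pairing menopausal/diabetic animals and 3 pairing diabetic animals, so that 4 arrays carried any 1 animal, with each dye used on 2 of them. Levels below are log2 values of 1 clone in 1 animal, taken against the average over all 6 animals, and differences are MD minus D. A level of 1 clone is not comparable with that of another clone. In bulk tissue, fewer cells of a type and less RNA per cell cannot be told apart.

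Some properties of the arrays bear on all values. The arrays differed in brightness: the median spot exceeded its background by 25.3 to 209 intensity units for Alexa Fluor 546 and by 14.6 to 107 for Alexa Fluor 647. The scanner software marked 30.5% to 57.4% of spots as detected in the Alexa Fluor 546 channel. Below, a clone is called detected on an array if either of its spots was so marked, in that channel alone. Identifiers inside the files fitted the titles for 11 of 12 arrays, and the array of D2 and D3 carried another identifier. For 2 arrays, MD1 with D2 and MD3 with MD1, the ratios were better predicted from the other arrays when the titled pair was turned round. The titled pair was the best of 30 ordered pairs of animals for 1 of the 12 arrays, so the animal levels rest on titles that the ratios back weakly. The array of D2 and D3 does not enter the group difference in this design, only its error and the comparison among diabetic animals. Without the 2 arrays whose pair was better turned, the members' median difference described below was -0.092. Kidney markers were bright: the 4 tested clones of proximal tubule genes (Lrp2, Miox and Gatm) had a median brightness percentile of 95.6, while the other proximal tubule markers looked for, among them Cubn, Slc34a1 and Slc5a2, had no named clone. Diabetic animal D3 stood apart, with an SD of levels over all tested clones of 0.192 against 0.101 to 0.116 in the other 5 animals.

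The members lay slightly lower in menopausal/diabetic kidneys, and no single clone passed the test. The median difference over the 67 clones was -0.089, against -0.0011 over all 11700 tested clones. Of the 67, 53 had a negative difference (79.1%), against 50.6% of all clones. At an adjusted p under 0.05 (limma on the 6 animal levels, Benjamini-Hochberg over all tested clones) 0 members were called, against 0% of all clones. At an unadjusted p under 0.05, 11 members were lower, or 16.4%, against 3.24% of all clones, and 3 were higher, or 4.48%, against 5.23%. The 3 menopausal/diabetic animals lay below all 3 diabetic animals for 15 members, where 6.62% of all clones did so, and above them for 2, where 7.72% did so.

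The median lay below 0 in all 4 groups of members. The median was -0.099 for the 31 clones of the large ribosomal subunit (26 lower), -0.065 for the 14 clones of the small subunit (10 lower), -0.099 for the 11 Timm clones (9 lower) and -0.087 for the 11 Tomm clones (8 lower). Cytosolic ribosomal proteins, which build the other ribosome of the cell, had a median of -0.10 over 154 clones, with 119 lower and 38 lower at an unadjusted p under 0.05. Subunits of oxidative phosphorylation, the complexes to which mitochondrial translation contributes, had a median of -0.016 over 84 clones, with 48 lower and 10 lower at an unadjusted p under 0.05. These lists were not tested against each other.

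**Figure D1:**
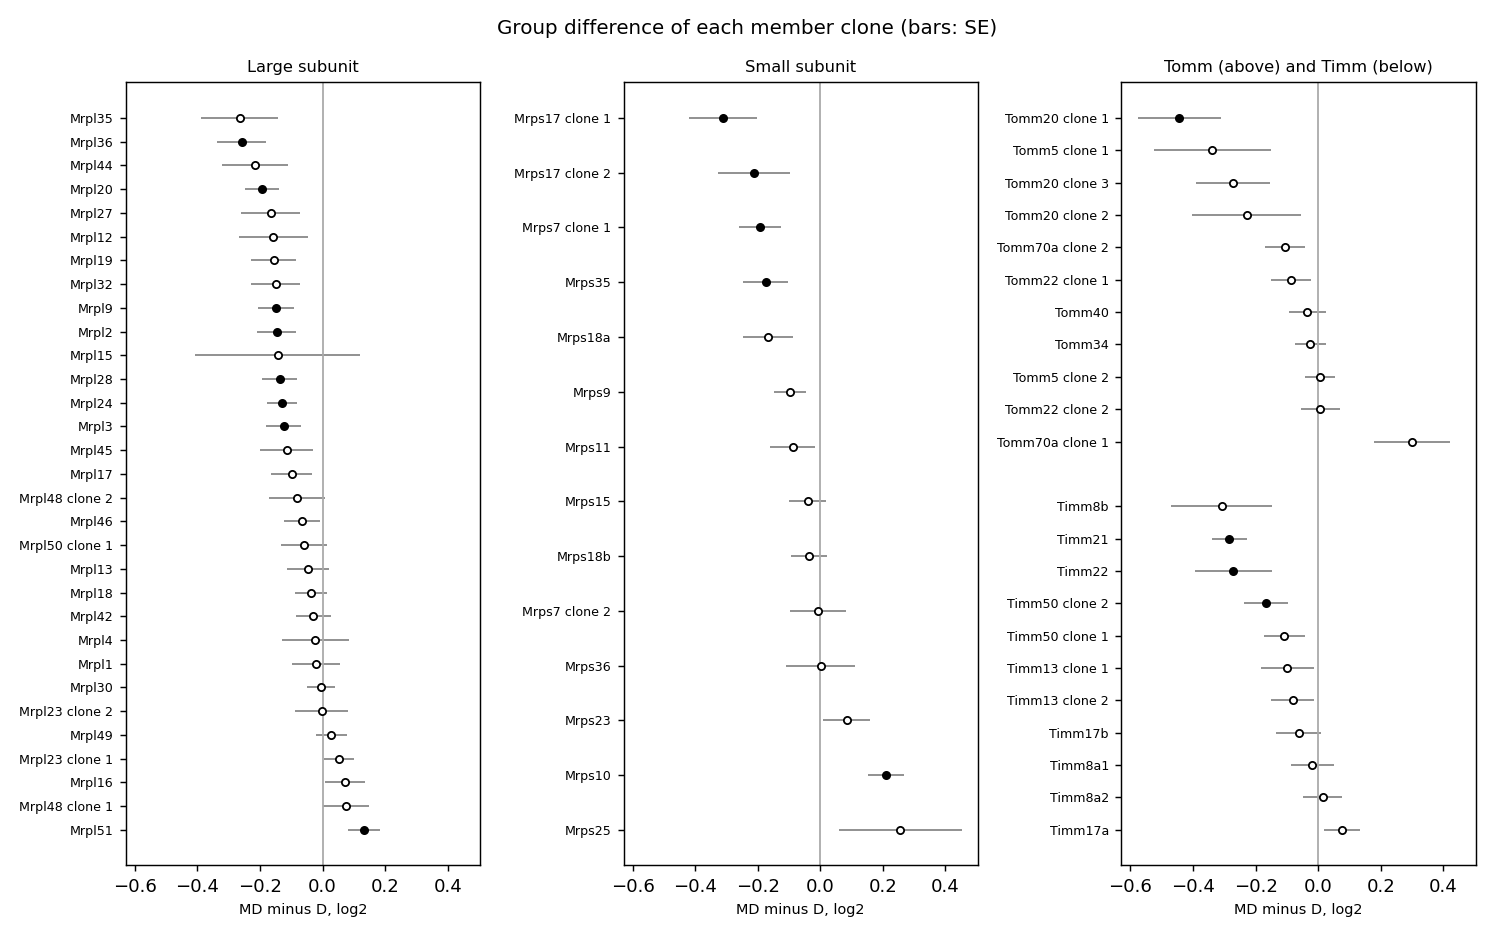
Difference (MD minus D, log2) of each of the 67 tested member clones, by ribosomal subunit and import complex, with its SE (3 animals per group) as a bar. Filled points mark clones whose groups did not overlap, 15 of them lower and 2 higher in menopausal/diabetic animals, and 53 of the 67 points lie left of 0.

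The members' median level was -0.050 in MD1, -0.052 in MD2 and -0.038 in MD3, and -0.0024 in D1, 0.014 in D2 and 0.098 in D3. The 3 menopausal/diabetic medians lay close together and below the 3 diabetic medians, of which D3 was the highest. D3 was the highest of the 6 animals for 35 of the 67 members, or 52.2%, against 26.5% of all clones. Without D3 the members' median was -0.049, with 48 of 67 lower (71.6%, against 49.96% of all clones), and limma called 0. In that fit 8 members were lower with no overlap between the groups, against 6.81% of all clones, and 3 were lower at an unadjusted p under 0.05, against 1.56%. Without D3 the median was -0.051 for the large subunit, -0.030 for the small subunit, -0.0060 for Timm clones and -0.085 for Tomm clones. It was then -0.0055 for the cytosolic ribosomal proteins, with 82 of 154 lower, and 0.0049 for the oxidative phosphorylation subunits, with 39 of 84 lower. Without D2 the members' median was -0.12, with 18 lower at an unadjusted p under 0.05, against 5.97% of all clones, and 0 called, although 46 clones of the whole array were then called.

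**Figure D2:**
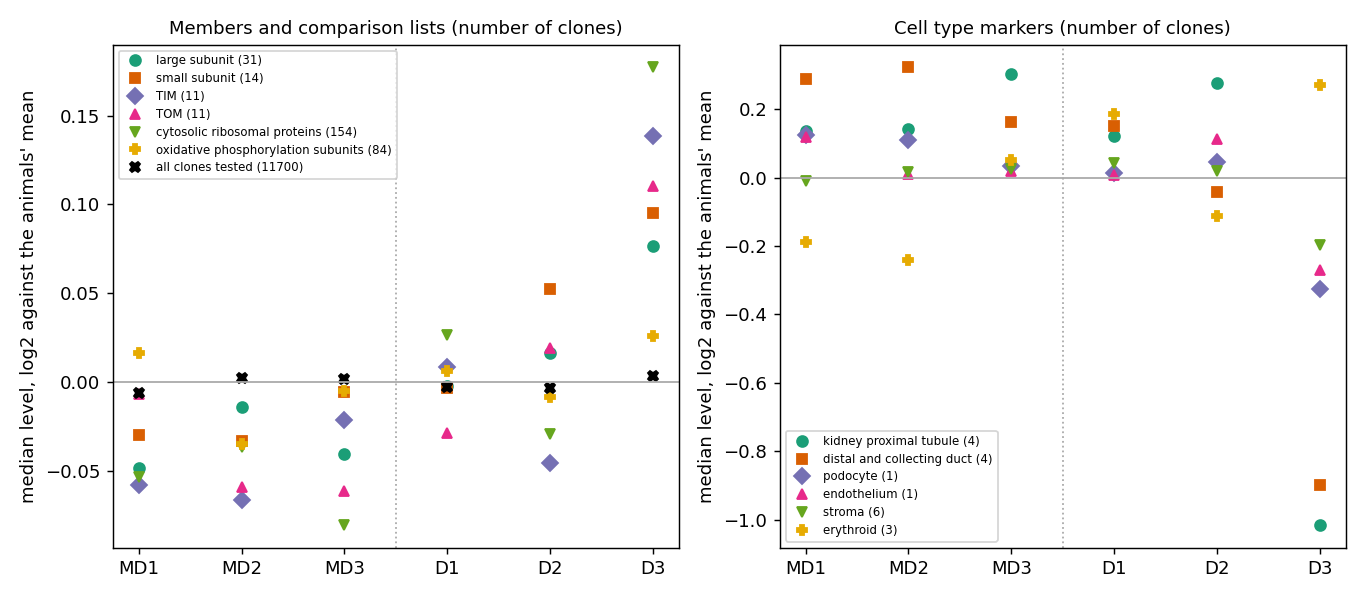
Median level (log2, relative to the mean of the 6 animals) per animal for the 4 member groups, 2 comparison lists and all tested clones on the left, and for cell type markers on the right, with MD animals left of the dotted line. In D3 the 4 member groups lie at their highest, while proximal tubule markers lie at -1.02 and Calb1, the distal marker, at -0.90.

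Markers of nephron segments moved with the same animal. The 4 proximal tubule clones had a median level of 0.14 in MD1, 0.14 in MD2 and 0.30 in MD3, and of 0.12 in D1, 0.28 in D2 and -1.02 in D3. The 4 clones of Calb1, calbindin of the distal tubule, had 0.29 in MD1, 0.32 in MD2 and 0.16 in MD3, and 0.15 in D1, -0.041 in D2 and -0.90 in D3. Tubule markers were therefore far lower in D3 than in any other animal, the reverse of the members. Podxl, a podocyte marker with 1 tested clone, had a level of -0.33 in D3, and Emcn, an endothelial marker with 1 clone, had -0.27. The 6 stromal clones had a median of -0.20 in D3, against -0.010 to 0.043 in the other animals. The 3 erythroid clones (Hbb-b1 and Alas2) had a median of 0.27 in D3, against -0.24 to 0.19 in the other animals. Lyz2, the 1 tested leukocyte marker, was high in another diabetic animal, with levels of -0.24, 0.0036 and -0.038 in MD1, MD2 and MD3, and of 0.51, -0.033 and -0.20 in D1, D2 and D3. Of the 2 tested adrenal clones, that of Star, which carries cholesterol into mitochondria for steroid synthesis, lay lower in all 3 menopausal/diabetic animals than in any diabetic animal. Its levels were -0.15, -0.065 and -0.042 in the menopausal/diabetic animals and 0.095, 0.033 and 0.13 in the diabetic animals, a difference of -0.17 ± 0.054 (limma, unadjusted p = 0.0154, adjusted p = 0.522). The Cyp11a1 clone, the other adrenal marker, had 0.0084 ± 0.045 and was detected on 0 arrays. The 6 stromal clones had 3 negative and 3 positive differences, with a median of -1.8e-05. That of Dcn, detected on 5 arrays, lay higher in all menopausal/diabetic animals than in any diabetic animal, at 0.20 ± 0.073. Of all tested clones, 7.72% lay higher in this way. The part of these marker shifts in the members' levels was not tested.

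On each of the 6 arrays that pair the groups, the median ratio of the members was below 0 for menopausal/diabetic over diabetic. It was -0.16 for MD1 over D3, -0.12 for MD3 over D2, -0.11 for MD2 over D3, -0.056 for MD2 over D1, -0.016 for MD3 over D1 and -0.00047 for MD1 over D2. The last array is one of those whose titled pair was doubtful. The median over all tested clones ran from -0.011 to 0.0067 on these arrays. Members below 0 numbered 34 to 49 of 67 per array. Because the design is balanced, the group difference of a clone is the same with these 6 arrays alone as with all 12.

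**Figure D3:**
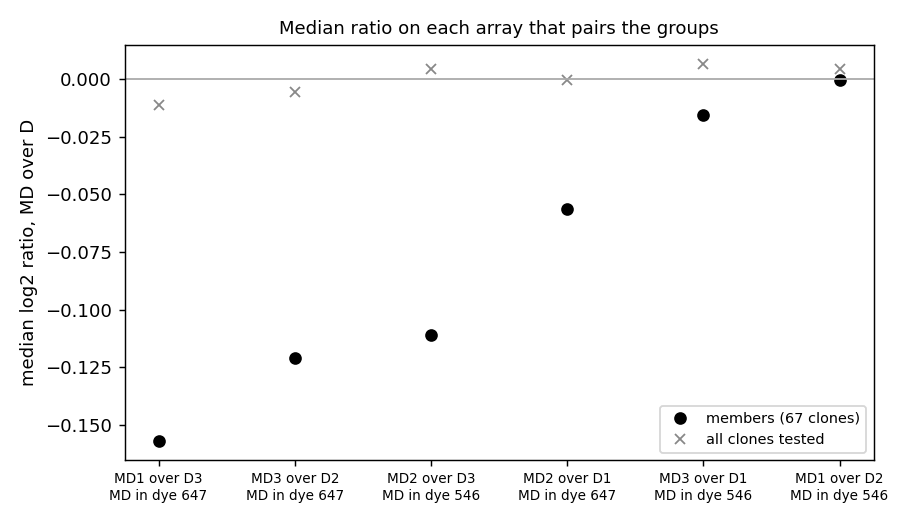
Median log2 ratio (MD over D) of the 67 members and of all tested clones on each of the 6 arrays that pair the groups, with the dye that carried the MD animal under each pair. All 6 member medians lie below 0, from -0.16 to -0.00047. The ratios were loess-normalized within each array, but the dye term fitted per clone was not applied. With MD in Alexa Fluor 546 the medians ran from -0.11 to -0.00047, and with MD in 647 from -0.16 to -0.056.

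Among the receptors and pore of the outer membrane, Tomm20 had the largest difference of all members. Tomm20 is the receptor that recognises the cleavable presequence of matrix proteins. It had 3 clones, of which the brightest had levels of -0.22, -0.36 and -0.087 in MD1, MD2 and MD3, and of 0.083, 0.075 and 0.51 in D1, D2 and D3. The groups did not overlap, and D3 was the highest animal by a wide margin. Its difference was -0.44 ± 0.13 (SE, 3 animals per group), or 0.735-fold, and missed the threshold (limma, unadjusted p = 0.0130, adjusted p = 0.522). It was -0.20 without D3 and -0.28 without MD2. The array of MD2 and D3 alone gave -1.41, and 5 of the 6 arrays that pair the groups lay below 0.

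The other Tomm20 clones also lay lower. The second had levels of -0.14, -0.12 and -0.091 in the menopausal/diabetic animals and of -0.048, -0.15 and 0.55 in the diabetic animals, so the groups overlapped and D3 alone was high. Its difference was -0.23 ± 0.17, and -0.036 without D3. The third had levels of -0.18, -0.23 and 0.0023 in the menopausal/diabetic animals and of -0.055, 0.090 and 0.37 in the diabetic animals, again with D3 highest and overlapping groups. Its difference was -0.27 ± 0.12, and -0.22 without D3.

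Tomm70a, the receptor for carrier proteins and other cargo with internal signals, gave opposite signs in its 2 clones. The brighter clone had levels of 0.14, -0.051 and 0.36 in the menopausal/diabetic animals and of -0.26, 0.019 and -0.21 in the diabetic animals. MD3 was highest and D1 lowest, and the groups overlapped through MD2 and D2. Its difference was 0.30 ± 0.12, with an unadjusted p of 0.0434 and an adjusted p of 0.574 by limma. The other clone had a difference of -0.11 ± 0.063. Tomm22, which organises the complex and receives cargo from the receptors, had -0.087 ± 0.065 and 0.0064 ± 0.062 in its 2 clones. Tomm40, the pore itself, had -0.034 ± 0.058. Tomm34 had -0.025 ± 0.049, and despite its name it is known as a cochaperone of the cytosol.

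Tomm5, a small subunit that stabilises the pore, was detected on 10 of 12 arrays in its brighter clone and on 0 in the other. The brighter clone had levels of -0.074, -0.059 and -0.37 in the menopausal/diabetic animals and of 0.0091, -0.092 and 0.59 in the diabetic animals. MD3 stood low and D3 high, and the other 4 animals lay close together. The difference was -0.34 ± 0.19 for this clone, -0.13 without D3, and 0.0051 ± 0.048 for the dim clone.

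In the TIM23 complex, which passes presequence proteins through the inner membrane, Timm21 had the smallest p of all members. Timm21 couples that complex to the respiratory chain. Its levels were -0.19, -0.12 and -0.12 in MD1, MD2 and MD3, and 0.074, 0.22 and 0.13 in D1, D2 and D3. Animals of each group lay close together and the groups did not overlap. The difference was -0.28 ± 0.056 (limma, unadjusted p = 0.00165, adjusted p = 0.306), and it was not stable to the processing. It was -0.28 without D3, but -0.074 without background correction, -0.16 without MD3, -0.42 without MD2 and -0.42 without the 2 arrays better turned. The clone was detected on 5 of 12 arrays, its residual SD between arrays was 0.43, and its 2 spots taken alone gave -0.50 and -0.068.

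Timm50, the receptor of the TIM23 complex, had -0.11 ± 0.067 and -0.17 ± 0.069 in its 2 clones, and the groups of the second clone did not overlap. Timm17a and Timm17b, alternative partners of the TIM23 channel, had 0.076 ± 0.058 and -0.063 ± 0.073. Timm17a had levels of 0.086, -0.057 and 0.085 in the menopausal/diabetic animals and of -0.0024, -0.081 and -0.030 in the diabetic animals, so the groups overlapped through MD2.

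Timm22, the channel that inserts carrier proteins into the inner membrane, had levels of -0.049, -0.34 and -0.016 in the menopausal/diabetic animals and of 0.044, 0.012 and 0.35 in the diabetic animals. The groups did not overlap, but MD2 and D3 lay far from the other 4 animals. The difference was -0.27 ± 0.12, and -0.0060 without D3. The small chaperones of the intermembrane space escort such cargo between the membranes. Timm8b had the largest difference among them, with levels of -0.27, -0.084 and -0.11 in the menopausal/diabetic animals and of 0.061, -0.12 and 0.53 in the diabetic animals. D3 was again the highest animal, and the groups overlapped through D2. Its difference was -0.31 ± 0.16, and -0.23 without D3. Timm13 had -0.099 ± 0.084 and -0.081 ± 0.068 in its 2 clones, but 0.033 and 0.061 without D3. Timm8a1 had -0.019 ± 0.068, and its paralogue Timm8a2 had 0.014 ± 0.061.

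In the large subunit of the mitochondrial ribosome, Mrpl20 and Mrpl36 had the smallest p on the lower side. Both have counterparts in the bacterial ribosome. Mrpl20 had levels of -0.016, -0.18 and -0.095 in MD1, MD2 and MD3, and of 0.12, 0.077 and 0.097 in D1, D2 and D3. The groups did not overlap, and all 6 arrays that pair the groups lay below 0. The difference was -0.19 ± 0.056 (limma, unadjusted p = 0.0112, adjusted p = 0.514), and -0.13 without D3, with a range of -0.31 to -0.093 over the alternatives. The residual SD of this clone between arrays was 0.33, against a median of 0.22 over the members, and the SE does not use it. Mrpl36 had levels of -0.17, -0.10 and -0.11 in the menopausal/diabetic animals and of 0.015, 0.080 and 0.29 in the diabetic animals. Here too the groups did not overlap, with D3 the highest. The difference was -0.26 ± 0.079, and -0.11 without D3, with a range of -0.69 with the deposited ratios to -0.089 without background correction.

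Other clones of the large subunit had differences of either sign. Mrpl51, a protein specific to the mitochondrial ribosome, had levels of 0.021, 0.11 and 0.067 in the menopausal/diabetic animals and of -0.097, -0.093 and -0.0084 in the diabetic animals. The groups did not overlap, yet 2 of the 6 arrays that pair the groups lay below 0. The difference was 0.13 ± 0.051 (limma, unadjusted p = 0.0374, adjusted p = 0.569), but -0.020 with 1 loess curve per print block and -0.052 with the deposited ratios. The residual SD of the Mrpl51 clone between arrays was 0.33. Mrpl12, the stalk protein that contacts translation factors, had -0.16 ± 0.11, but 0.077 without MD2 and 0.098 with the deposited ratios. Mrpl18, a neighbour of the 5S position in bacterial ribosomes, had -0.037 ± 0.052. Mrpl23, which lies at the exit tunnel, had 0.052 ± 0.049 and -0.0030 ± 0.086 in its 2 clones, and Mrpl48 had 0.076 ± 0.073 and -0.082 ± 0.090. The second Mrpl23 clone lay in the slide corner described below for Mrps10. With 1 loess curve per print block the Mrpl23 clones had -0.0010 and -0.062.

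In the small subunit, Mrps17, a counterpart of a bacterial protein that binds the ribosomal RNA, lay lower in both of its clones. The brighter had levels of -0.19, -0.21 and -0.065 in the menopausal/diabetic animals and of 0.045, 0.023 and 0.40 in the diabetic animals. The other had -0.092, -0.17 and -0.056 in the menopausal/diabetic animals and -0.0011, -0.051 and 0.37 in the diabetic animals. In both clones the groups did not overlap and D3 was highest. The differences were -0.31 ± 0.11 and -0.21 ± 0.11, against -0.20 and 0.023 without D3. Without background correction the brighter clone had -0.17. Mrps7, which helps assemble the subunit head, had -0.19 ± 0.067 in a clone detected on 10 arrays and -0.0080 ± 0.090 in a clone detected on 0. The first value was -0.0066 without MD3, -0.37 without MD1, -0.018 without background correction and -0.46 with the deposited ratios.

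Mrps10, also of the subunit head, had the smallest p of the members on the higher side. Its levels were 0.029, 0.16 and 0.12 in the menopausal/diabetic animals and -0.17, -0.089 and -0.055 in the diabetic animals, so the groups did not overlap. The difference was 0.21 ± 0.058 (limma, unadjusted p = 0.00913, adjusted p = 0.514), with a residual SD between arrays of 0.29. This clone lay in 1 of 3 print blocks, out of 48, at a corner of the slide. In those 3 blocks the median difference of all 669 tested clones was 0.13. With 1 loess curve per print block, which centres each block, the Mrps10 difference was 0.073 (limma, adjusted p = 0.791). It was also smaller without MD2 (0.066) and without D1 (0.081), and reached 0.33 without MD1. The corner held 4 tested members, and outside it the members' median was -0.099, with 50 of 63 lower. Mrps25, specific to the mitochondrial ribosome, had levels of 0.023, 0.18 and 0.18 in the menopausal/diabetic animals and of -0.53, -0.16 and 0.31 in the diabetic animals. The diabetic animals ran wider than the menopausal/diabetic ones, and the groups overlapped. The difference was 0.26 ± 0.20. Mrps36 falls outside the rule for named genes and was chosen after its values were seen. It is known also as a subunit of the oxoglutarate dehydrogenase complex rather than of the ribosome, and its difference was 0.0012 ± 0.11.

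**Figure D4:**
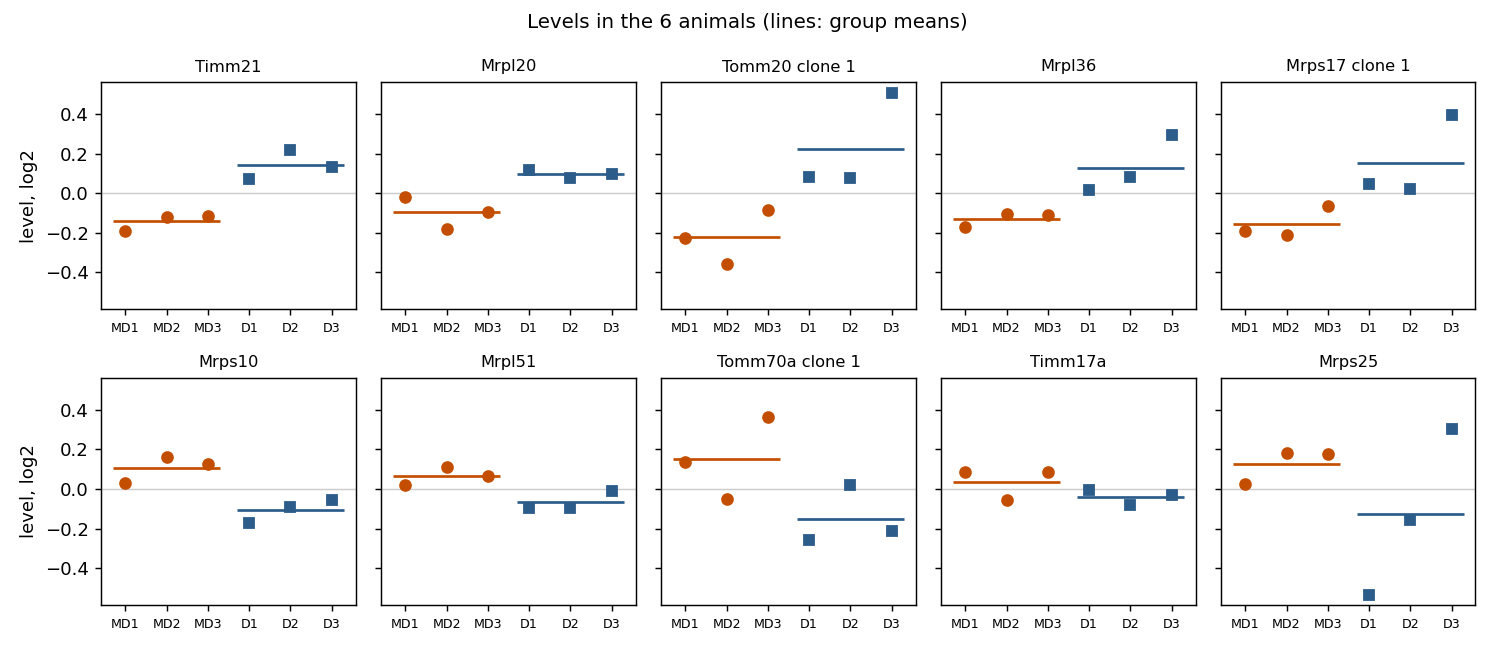
Levels (log2, relative to the mean of the 6 animals) of the 5 members with the smallest p on the lower side (upper row) and on the higher side (lower row), MD animals as circles and D animals as squares, with group means as lines. In the upper row D3 is the highest animal for Tomm20, Mrpl36 and Mrps17 but not for Timm21 and Mrpl20.

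Several genes had more than 1 tested clone, which gives a check within the array. Of 10 member genes with several clones, all clones lay lower in 5 (Tomm20, Mrps17, Mrps7, Timm50 and Timm13), none had all clones higher, and the signs were mixed in 5. Over the whole array, of 1317 such genes, all clones lay lower in 327 and higher in 373, and the signs were mixed for 46.8%. Some signs among the members rest on differences near 0, as in Mrps7 at -0.0080 and Tomm22 at 0.0064. Tomm5, Tomm22, Tomm70a, Mrpl23 and Mrpl48 were the mixed ones among the members. This sorting depends on D3. Without D3 both Timm13 clones lay higher (0.033 and 0.061) and Mrps17 was mixed (-0.20 and 0.023). Both clones then lay lower for Tomm22 (-0.13 and -0.12) and for Mrpl48 (-0.038 and -0.055). Spotted cDNA can also take up near-identical transcripts such as those of processed gene copies, so the clones of 1 gene need not report 1 transcript.

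The animals within each group were compared with an F test whose error is that between arrays. Among menopausal/diabetic animals 0 members were called by limma, against 0% of all clones, and 3 had an unadjusted p under 0.05, against 5.16% of all clones. Those 3 were Tomm5 and Tomm70a, in their brighter clones, and the dimmer clone of Mrpl23. Among diabetic animals 2 members were called, against 1.60% of all clones, and 10 had an unadjusted p under 0.05, against 12.9%. The called clones were the second Tomm20 clone (adjusted p = 0.0162, limma) and the brighter Tomm5 clone (adjusted p = 0.0259, limma), each highest in D3 with the levels given above. Neither was called without the array of D2 and D3 or without the 2 arrays better predicted by the turned pair. Timm8b had the next smallest p, with an adjusted p of 0.157 by limma.

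**Figure D5:**
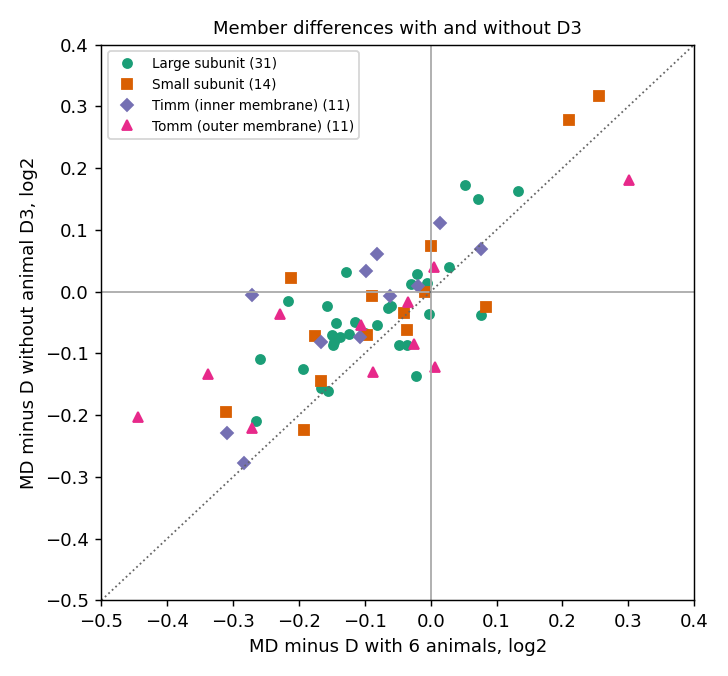
Difference (MD minus D, log2) of each member clone with all 6 animals (horizontal) and without animal D3 (vertical), by member group, with a dotted line where both are equal. Most clones left of 0 move up towards 0 without D3, with a median of -0.049 in place of -0.089, and Timm22 lies at -0.0060.

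Genes that work beside the members had list medians nearer 0 in the comparison of the groups. The 14 clones of a list for mitochondrial translation had a median of -0.028, with 10 lower. At an unadjusted p under 0.05, 0 were lower and 1 was higher. This list holds translation factors and other genes of that process, among them Dap3, a ribosomal protein that the naming rule misses (-0.053 ± 0.073). The clones with the smallest p were those of Dhx30, an RNA helicase of the mitochondrial granules, at 0.21 ± 0.070, and of Gfm1, the elongation factor that moves the ribosome along, at 0.21 ± 0.099. The 19 clones of import partners, chaperones and processing enzymes had a median of 0.0050, with 9 lower, 1 of them at an unadjusted p under 0.05. That clone was of Pam16, part of the import motor, at -0.24 ± 0.080, followed by Oxa1l, which inserts proteins into the inner membrane from the matrix, at 0.12 ± 0.052. The 18 clones for expression of the mitochondrial genome had a median of -0.013, with 12 lower and 0 at an unadjusted p under 0.05, led by Supv3l1, an RNA helicase, at 0.15 ± 0.069 and Pnpt1, its exonuclease partner, at -0.12 ± 0.062. In each of the 3 lists limma called 0 clones between the groups at an adjusted p under 0.05. Without D3 the medians were 0.0094 for the translation list (5 of 14 lower) and 0.019 for the import partners (7 of 19 lower). For expression of the mitochondrial genome the median was then -0.020 (14 of 18 lower). Among diabetic animals the F test called 1 import partner, Grpel1, a cofactor of the import motor (adjusted p = 0.0260, limma), and 1 gene of mitochondrial DNA upkeep, Ssbp1 (adjusted p = 0.0291, limma), both singled out after their values were seen. Both were highest in D3, Grpel1 at 0.75 and Ssbp1 at 0.38.

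Promoters are shown for the 3 members with the smallest p on the lower side that had a RefSeq window (Mrpl20, Tomm20 and Mrpl36) and for the 3 on the higher side (Mrps10, Mrpl51 and Tomm70a), to let their letters be compared. The stretches are the 250 bases before the start site on the gene's strand, from RefSeq on GRCm38.p6, at chr4:155802628-155802877 (plus strand), chr8:126945922-126946171 (minus), chr13:73330759-73331008 (plus), chr17:47368947-47369196 (plus), chr6:125191950-125192199 (plus) and chr16:57121464-57121713 (plus). Capitals mark the motif CCGGAAG, a core that ETS factors such as GABP bind, or AAGATGGCG, an element bound by YY1, on either strand.
Mrpl20: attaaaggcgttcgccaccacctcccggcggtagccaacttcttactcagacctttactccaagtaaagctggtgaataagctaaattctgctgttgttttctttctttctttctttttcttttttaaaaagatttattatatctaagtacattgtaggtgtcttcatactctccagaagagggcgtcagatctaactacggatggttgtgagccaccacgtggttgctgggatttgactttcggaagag
Tomm20: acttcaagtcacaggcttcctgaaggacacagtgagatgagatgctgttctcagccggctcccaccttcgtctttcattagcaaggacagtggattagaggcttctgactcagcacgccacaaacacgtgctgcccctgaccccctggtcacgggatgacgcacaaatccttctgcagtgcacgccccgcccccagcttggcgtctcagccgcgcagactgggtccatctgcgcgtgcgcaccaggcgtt
Mrpl36: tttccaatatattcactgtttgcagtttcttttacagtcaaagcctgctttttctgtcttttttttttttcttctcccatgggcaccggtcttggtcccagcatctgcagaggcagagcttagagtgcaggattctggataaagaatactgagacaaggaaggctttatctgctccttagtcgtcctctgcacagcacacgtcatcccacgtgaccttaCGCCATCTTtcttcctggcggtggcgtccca
Mrps10: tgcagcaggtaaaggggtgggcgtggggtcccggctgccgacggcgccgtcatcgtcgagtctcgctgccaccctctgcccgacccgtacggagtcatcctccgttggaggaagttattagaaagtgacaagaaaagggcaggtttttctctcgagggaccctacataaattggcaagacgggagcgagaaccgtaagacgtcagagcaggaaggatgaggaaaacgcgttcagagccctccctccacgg
Mrpl51: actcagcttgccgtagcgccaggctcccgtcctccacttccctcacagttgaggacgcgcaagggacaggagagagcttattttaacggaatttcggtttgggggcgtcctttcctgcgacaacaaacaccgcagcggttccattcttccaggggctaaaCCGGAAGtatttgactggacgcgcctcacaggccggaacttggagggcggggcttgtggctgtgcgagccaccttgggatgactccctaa
Tomm70a: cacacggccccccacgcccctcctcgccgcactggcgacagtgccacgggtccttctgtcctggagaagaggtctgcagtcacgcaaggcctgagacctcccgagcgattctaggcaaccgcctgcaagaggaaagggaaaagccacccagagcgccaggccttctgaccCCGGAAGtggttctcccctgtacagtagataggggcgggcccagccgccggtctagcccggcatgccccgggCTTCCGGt
Mrpl20, Tomm20 and Mrps10 held no match, Mrpl36 held 1 YY1 element on the other strand, Mrpl51 held 1 ETS core and Tomm70a held 2. Promoter windows from 250 bases before to 50 after the start were on hand for 53 of the 59 member genes. The ETS core was in 16 of them (30.2%), against 22.4% of 4760 genes with a tested clone and 9.93% of all 27025 genes in the table. It was in 45.3% of cytosolic ribosomal genes and 35.3% of oxidative phosphorylation genes. The YY1 element was in 6 (11.3%), against 4.18% and 1.64%. It was in 7.55% of cytosolic ribosomal genes and 11.8% of oxidative phosphorylation genes. A core of the site of NRF1, a regulator of nuclear genes for mitochondria, written GCGCATGCG, was in 6 (11.3%), against 4.94% and 1.95%. That core was in 3.77% of cytosolic ribosomal genes and 13.7% of oxidative phosphorylation genes. The 53 member genes include Mrpl10, Mrpl52 and Mrpl58, whose clones were set aside as dim. Mrpl52 and Mrpl58 held the ETS core and Mrpl10 the NRF1 core. The 4760 genes and the cytosolic ribosomal and oxidative phosphorylation genes all had a tested clone, so the sets differ in this. The last letters of the ETS core can overlap the first of the YY1 element. These counts describe letters in a window, and on either side some of the members shown held a match and some did not.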

How the data were processed

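Kidney cortex RNA of 3 menopausal/diabetic and 3 diabetic mice was measured on 12 arrays with 2 dyes and 2 spots per clone. Per the file headers, each spot has a mean intensity and a median local background intensity in each channel. The authors also deposited a log2 ratio table, but its normalization steps were not given in the sources used here. Its columns did not follow the arrays they are named for. Each matched another array, in slide order, at Spearman correlations of 0.629 to 0.952 over the 6000 brightest spots, and it served as an alternative only.

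Clones were named from the platform's probe table with rows counted from the slide bottom. Members then had a mean brightness percentile of 72.7, against 55.9 in file order. Of 15600 clones, 9191 had 1 gene symbol, 254 several and 6155 none, and symbols were updated for the 9085 found in the RefSeq gene table. The normexp background correction (offset 50), 1 loess curve per array and the mean over both spots were computed with limma 3.58.1 under R 4.3.3. The 25% dimmest clones were left out. The 12 ratios were fitted to 6 animal levels and a dye term, the levels were compared by lmFit and eBayes, two-sided, and animals within a group by a moderated F test on the 12 arrays. P-values were adjusted by Benjamini-Hochberg over all 11700 clones at a threshold of 0.05. The scripts were tested on simulated data. Animals are taken as separate from their numbers in the titles. The SE of a difference comes from the spread of the animal levels within the groups, moderated by limma. The residual SD of a clone between arrays is not used for it. Precision is limited by how few arrays and animals there are.

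Named clones were those with the 5 smallest p on each side, the 3 smallest in each F test, all Timm and Tomm clones, the 5 brightest ribosomal clones and genes with several clones. Alternatives changed background correction, loess, dim-clone filter, clone choice, spot quality, arrays, animals, blocking and input. The members and lists were chosen with earlier results of these data known.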

Additional observations from a re-analysis of the deposited data

How the results depend on the processing

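Limma called 0 members between the groups under each of the 18 alternatives, with a smallest adjusted p of 0.136 without D2. By construction 4 alternatives leave the members' median as it is, and under the other 14 it lay below 0, from -0.12 to -0.049 apart from -0.16 with the deposited ratios. Between 70.1% and 82.1% of members had a negative difference. Members lower at an unadjusted p under 0.05 numbered 0 with the 6 arrays between groups (0.453% of all clones), 6 with the dimmer 50% left out (3.46%), and 3 to 18 with 1 animal left out, the extremes being without D3 (1.56%) and without D2 (5.97%). The levels of animals sharing a number had correlations of -0.051, -0.36 and -0.16. Such animals never shared an array, and levels are taken against the mean of the 6 animals, both of which can lower these correlations. The values therefore cannot show whether the number carries a shared effect. The fit with the animal number as a replicate block had 0 called, and 7 lower (2.62% of all clones) and 1 higher (4.35%) at an unadjusted p under 0.05. Over the alternatives, members higher at an unadjusted p under 0.05 numbered 0 to 3, where 0.624% to 8.14% of all clones were higher. There were 0 with the 6 arrays between groups (0.624% of all clones), with the deposited ratios (4.92%) and without D1 (3.12%). Without D2 there were 3 (8.14%). Members whose groups did not overlap numbered 4 lower with the 6 arrays between groups (1.61% of all clones) and 25 without D2 (14.9%). Calls among diabetic animals numbered 1 without background correction and with the brightest clone per gene, and 0 without the array of D2 and D3, with the deposited ratios, and without the 2 arrays better predicted by the turned pair, a choice made after seeing the data. Of 250 alternative values of the 14 clones ranked by p, 110 equalled the reported difference, because those alternatives leave a clone's difference as it is. Of the remaining 140, 132 kept their sign and 8 reversed, in 3 clones. Of 403 values of 23 other named clones, 173 equalled the reported one, 37 moved by more than 1 SD of the animals, and the sign turned at least once in 14 clones. Mrpl51 had -0.020 with print-block loess and -0.052 with the deposited ratios. Timm17a had -0.012 without background correction. The dimmer Mrpl23 clone had 0.046 without background correction, 0.027 without the 2 turned arrays and -0.12 to 0.081 with 1 animal left out. The causes were not tested.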
